A study of Drosophila melanogaster with 2 samples.

Results

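miR-317, miR-277 and miR-34 are 3 microRNAs whose hairpins lie close together on chromosome arm 3R of Drosophila melanogaster. They were followed here through 1 adult and 1 larval small RNA library of the central nervous system (CNS), by taking the rows named mir-317, mir-277 and mir-34 from the deposited count tables. All 3 were listed in both libraries, out of 174 hairpins in all. The adult library came from brains with antennal lobes of flies 3 to 5 days after eclosion. The larval library came from the ventral ganglion with optic lobes, without eye discs, of wandering larvae of instar 3. Both stages were of the isogenic strain w[1118] Iso31 with no further allele or treatment named in the labels, were grown at 24 °C, and were pooled from about 100 animals of both sexes per library. Stage and dissected region changed together, so the 2 cannot be told apart.

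A microRNA hairpin is cut so that either of its arms can give a mature strand, and usually one strand is kept in an Argonaute protein while its partner is lost. The strand that is kept pairs with messenger RNAs through its seed near the 5' end and lowers their output. Its 3' end can be shortened or lengthened after cutting, and in flies the exonuclease Nibbler trims the 3' end of miR-34. miR-34 is known in the fly for maintenance of the ageing brain and for restraint of Eip74EF, an ecdysone-induced transcription factor. miR-277 is known for control of the genes that break down branched-chain amino acids, and miR-317 for restraint of Toll immune signalling.

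In the annotation of assembly BDGP6 all 3 hairpins lie on the plus strand of 3R. miR-317 comes first, at 10091126 to 10091217. miR-277 follows at 10100022 to 10100121, 8804 bases further on, and miR-34 at 10100936 to 10101034, only 814 bases after miR-277. miR-277 lies in the single exon of 2 transcripts of the long noncoding RNA lncRNA:CR43459, and miR-34 in that of the longer one. miR-317 lies outside this gene and in no other annotated transcript. The gene downstream, 385 bases from miR-34 and on the opposite strand, is Fmr1, the fly counterpart of the fragile X RNA-binding protein gene. No other annotated hairpin lies within 10 kb of a member. The annotated 5' and 3' mature arms are 22 and 24 bases long in miR-317, 21 and 23 in miR-277, and 24 and 23 in miR-34.

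**Figure D1:**
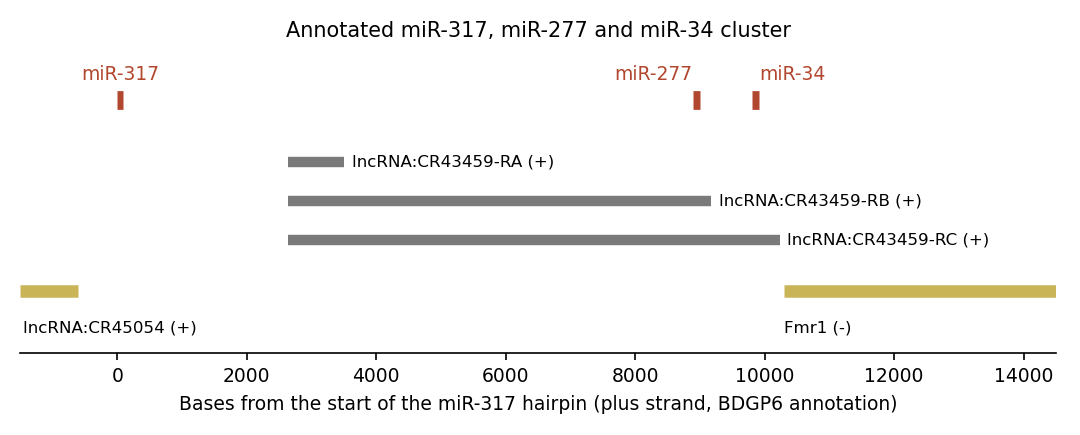
Annotated features of the cluster, drawn as distance in bases from the start of the miR-317 hairpin. Red blocks are hairpins, grey bars the transcripts of lncRNA:CR43459 and yellow bars the genes on either side, with strand in parentheses. miR-277 and miR-34 stand 814 bases apart inside the longest grey bar, and miR-317 stands 8804 bases upstream of miR-277, outside it.

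The adult library held 1665159 hairpin reads and the larval library 822500, so that 1 read stood for 0.601 RPM (reads per 1000000 hairpin reads) in the adult and 1.22 RPM in the larval CNS. With 1 library per stage there was no spread between samples and no test. Intervals are 95% intervals of counting error alone, and the reads carried no molecular identifiers. Among markers of cell types, miR-124 of neurons had 1603 RPM in the adult and 2564 RPM in the larval CNS. miR-1 of muscle had 141 and 47.4 RPM, and miR-210 of photoreceptors 17586 and 99.7 RPM. The fat body and gut cluster of miR-959 had 4 of 6 hairpins listed, with 9 adult reads and 0 larval reads in all, where a count of 0 allows up to 3.65 RPM. The testis list had 6 of 8 hairpins listed, with 24 adult and 3 larval reads in all, and miR-318 of the ovary 38 and 4 reads. The part of other tissues in the values below was not tested. In whole tissue, more cells that make a microRNA and more of it per cell cannot be told apart.

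The cluster as a whole took a larger part of the adult than of the larval library. Together they supplied 159731 adult reads, 9.59% of that library (9.55 to 9.64), and 31621 larval reads, 3.84% (3.80 to 3.89). The sum was 95925 RPM in the adult and 38445 RPM in the larval CNS, 2.5-fold higher in the adult (2.47 to 2.53).

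miR-277, which tunes amino acid breakdown, was among the most abundant hairpins of the adult library and a minor one of the larval library. It had 40735 reads or 24463 RPM in the adult library (24226 to 24702), against 257 reads or 312 RPM in the larval library (275 to 353), a ratio of 78.3 (69.3 to 88.9). It thus ranked 10th of 169 listed hairpins in the adult and 58th of 139 in the larval library. In the larval library its level could not be set apart by counting error from that of miR-31b, next below it with 291 RPM.

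miR-34 was also higher in the adult library. Its 36987 adult reads gave 22212 RPM (21987 to 22440), and its 2196 larval reads 2670 RPM (2559 to 2784), a ratio of 8.32 (7.97 to 8.69). It ranked 11th in the adult library, directly below miR-277, and their intervals did not overlap. In the larval library it ranked 26th, and miR-927, next below with 2575 RPM, overlapped it.

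miR-317 was abundant at both stages. It had 82009 reads or 49250 RPM in the adult library (48913 to 49588) and 29168 reads or 35463 RPM in the larval library (35057 to 35872), a ratio of 1.39 (1.37 to 1.41). It ranked 7th and 6th, below bantam in both libraries, and above miR-999 in the adult and miR-92b in the larval one.

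**Figure D2:**
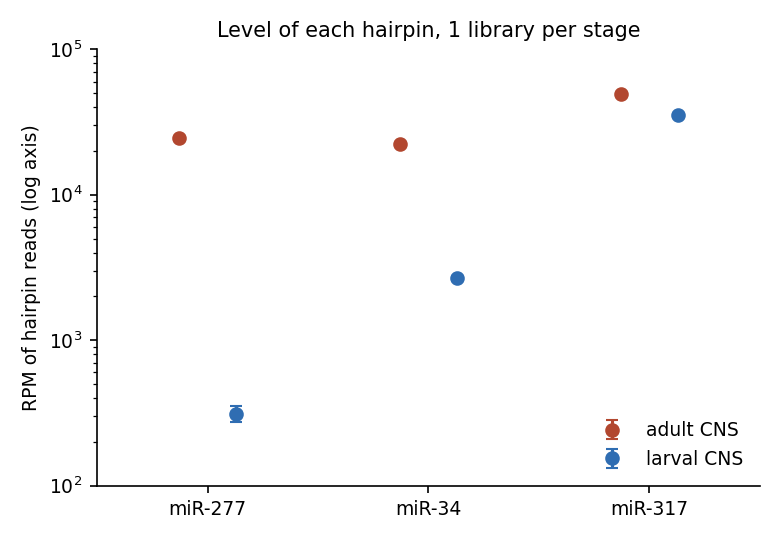
Level of each hairpin in RPM on a log axis, adult CNS (red) left of larval CNS (blue). Points are single libraries and bars are 95% Poisson intervals of the count, mostly smaller than the points. The adult points lie between 22212 and 49250 RPM, while the larval points spread between 312 and 35463 RPM.

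Among 114 hairpins with at least 20 reads over both libraries and 10 RPM in either, 40.4% were at least 2-fold higher in the adult library and 24.6% at least 2-fold lower. Of the 3 members, miR-277 and miR-34 were past this fold in the adult direction, and miR-317 was past it in neither. Adding 0.5 reads to every count, the log2 of the adult over the larval level was 6.29 for miR-277, the 4th largest of the 114. It was 3.06 for miR-34, the 17th, and 0.47 for miR-317, the 57th. The median of all compared hairpins was also 0.47, and miR-317, in the middle of the ranking, helps to set it. The authors' deposited table gives for the 3 the same levels and fold changes of -78.3, -8.32 and -1.39, where a negative sign marks a lower larval value. Its p from Kal's Z-test is listed as 0 for each. That test sets 2 libraries against each other and has no replicates behind it.

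These ratios lean on the total they are scaled to. Once the 10 most abundant hairpins were left out of it, every log2 ratio dropped by 0.52 and the median of the compared hairpins became -0.05. miR-317 then stood at -0.05 too. The hairpins past 2-fold were then 41 higher and 41 lower in the adult library, in place of 46 and 28, so that 50.0% of them were higher in the adult, against 62.2% before. Relative to the median, miR-277 was 5.82 higher, miR-34 2.59 higher and miR-317 0.0038 higher. These differences are fixed by construction, since a change of total moves every log2 ratio and the median alike.

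Quotients between members need no scaling between libraries, since both counts come from the same one. Bias of ligation and PCR between microRNAs stays in such quotients and in shares and orders of members. The intervals do not cover it. There were 0.497 reads of miR-277 for each read of miR-317 in the adult library and 0.00881 in the larval CNS, a 56.4-fold difference (49.8 to 64.0). For miR-34 there were 0.451 reads per read of miR-317 in the adult and 0.0753 in the larval CNS, 5.99-fold apart (5.73 to 6.27). miR-277 and miR-34, the close neighbours, had 1.10 reads of miR-277 per read of miR-34 in the adult and 0.117 in the larval CNS, a 9.41-fold difference (8.26 to 10.8). The quotient of the pair only 814 bases apart thus differed more between the libraries than that of miR-34 and miR-317. Counting reads of the mature arms only, miR-277 had 1.13 reads per read of miR-317 in the adult library and 0.0185 in the larval CNS. The differences were then 60.9-fold (53.7 to 69.4), 6.17-fold for miR-34 and miR-317, and 9.87-fold for miR-277 and miR-34.

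As shares of the reads of the cluster, miR-317 held 51.3% in the adult (51.1 to 51.6) and 92.2% in the larval library (91.9 to 92.5). miR-277 held 25.5% and 0.813%, and miR-34 23.2% and 6.94%. The order was thus miR-317, miR-277, miR-34 in the adult and miR-317, miR-34, miR-277 in the larval library. The order in the adult library depended on which reads were counted. Counting reads of the mature arms only, miR-277 held 38.6% of the adult cluster (38.3 to 38.9), miR-317 34.3% (34 to 34.6) and miR-34 27.1% (26.9 to 27.4). Counting only reads equal to the annotated mature arms, miR-317 held 35.8% of it (35.42 to 36.14) and miR-277 35.05% (34.69 to 35.41). That lead was narrow, and the intervals of counting error only just did not overlap. The larval order was the same each time, and with mature reads it had 87.2% for miR-317, 11.2% for miR-34 and 1.61% for miR-277.

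Other groups of neighbouring microRNAs differed in how far their members parted. The log2 ratios of the cluster spanned 5.81. Those of the let-7 complex (let-7, miR-100 and miR-125) spanned 1.95, and those of miR-275 and miR-305 3.00. The span of miR-12, miR-283 and miR-304 was 1.5, with its upper end from miR-304, at 21 adult reads and 6 larval reads. The ratio of miR-304, 1.73, had an interval of 0.675 to 5.24. Groups of more members tend to span more. let-7, a regulator of the timing of development, was the leading member of its complex in both libraries, with 74.5% of its reads in the adult and 68.6% in the larval CNS. These groups were set beside the cluster as a description, with no test of the difference.

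The 3 hairpins differed in which arm their mature reads came from. Nearly all mature reads of miR-277 and miR-317 came from the 3' arm at both stages. miR-277 had 40185 reads on the 3' and 85 on the 5' arm in the adult library, and 247 and 2 in the larval library. The 5' share was thus 0.211% in the adult (0.169 to 0.261) and 0.803% in the larval library (0.0974 to 2.87), and the intervals overlapped. miR-317 had 35729 reads on the 3' and 58 on the 5' arm in the adult library, and 13471 and 16 in the larval library. Its 5' share was 0.162% in the adult (0.123 to 0.209) and 0.119% in the larval library (0.0678 to 0.193), again with overlapping intervals.

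miR-34 used both arms, and the part of its 5' arm, the strand known to act in the ageing brain, was larger in the adult library. It had 14256 reads on the 5' and 14066 on the 3' arm in the adult library, and 433 and 1296 in the larval library. The adult 5' share was 50.3% with an interval of 49.8 to 50.9, so the arms could not be set apart there by counting error. The larval share was 25% (23 to 27.2). These shares leave out the reads assigned to neither arm, 23.4% of the adult and 21.3% of the larval miR-34 reads. Where those reads lie is not known, and the intervals do not cover it. Both arms stood higher in the adult CNS, with a ratio of 16.3 for the 5' arm (14.8 to 17.9) and 5.36 for the 3' arm (5.06 to 5.68). Arm shares were compared in 76 hairpins that had 20 or more mature reads per library and used both arms, and 22.4% of them had a 5' share that differed by at least 10 percentage points with intervals apart, 9.21% toward the 5' arm in the adult. miR-34 was the only member among them, and its 25.3 points were the 5th largest gain of the 5' arm.

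**Figure D3:**
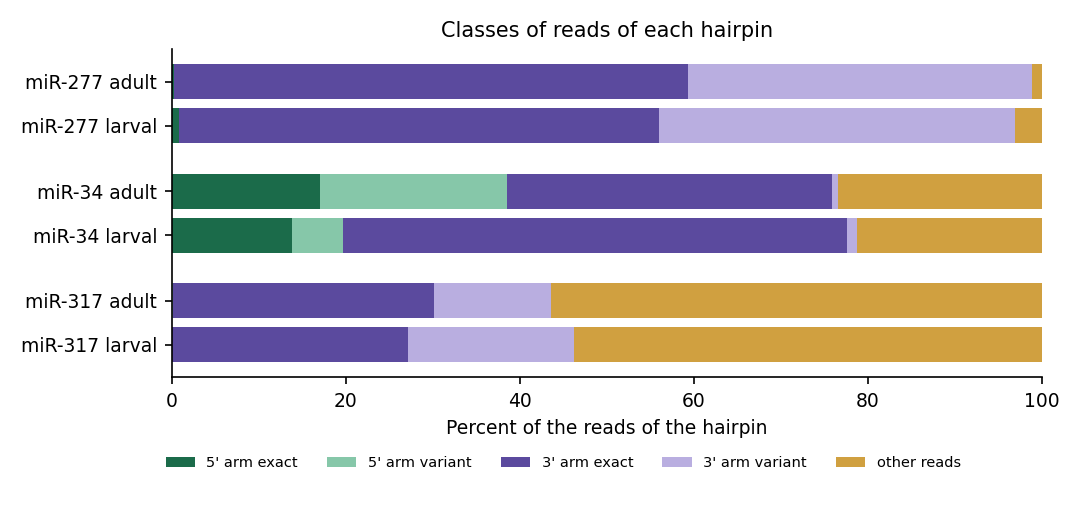
Reads of each hairpin by class, as percent of all reads of that hairpin, with the adult library above the larval one. Exact reads equal the annotated mature arm, variant reads were assigned to an arm without equalling it, and other reads were assigned to neither arm. The variant part of the miR-34 5' arm is 21.6% of its adult and 5.97% of its larval reads, and other reads are over 50% of miR-317 in both libraries.

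The deposited columns also separate, within an arm, reads equal to the annotated mature form from variants of it. They do not give at which end, or how, a variant differs from that form. Over 119 arms with at least 20 reads in each library, the median share of exact reads was 59.4% in the adult and 68.0% in the larval CNS. In 25.2% of these arms it differed by at least 10 points with intervals apart, 7 toward more and 23 toward fewer exact reads in the adult library. Of the 4 arms of the cluster that were deep enough, 2 met this rule, in opposite directions.

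The 5' arm of miR-34 was one of these. It had 6285 exact and 7971 variant reads in the adult library, against 302 exact and 131 variant reads in the larval library. Its exact share was thus 44.1% in the adult (43.3 to 44.9) and 69.7% in the larval library (65.2 to 74.0), the 5th largest loss among the 119 arms. In level, the ratio of adult to larval was 30.1 for the variants (25.3 to 36) and 10.3 for the exact reads (9.16 to 11.6). Of the 8035 RPM by which the adult 5' arm exceeded the larval one, 4628 RPM were variants. With exact reads alone the 5' share of miR-34 was 31.2% in the adult (30.6 to 31.9) and 19.2% in the larval library (17.3 to 21.2), so that the gain of the 5' arm was 12.1 points in place of 25.3 and the 3' arm kept the majority at both stages.

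The 3' arm of miR-34 was nearly uniform beside it. Its exact share was 98.3% in the adult (98.1 to 98.5) and 98.1% in the larval library (97.3 to 98.8). In the same libraries the 2 strands of a single hairpin thus differed widely in how many of their reads varied.

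The 3' arm of miR-317 met the rule toward more exact reads, by 10.2 points, just past the 10 required. It had 24619 exact and 11110 variant reads in the adult library, and 7913 and 5558 in the larval library, for exact shares of 68.9% (68.4 to 69.4) and 58.7% (57.9 to 59.6). Its variants stood at 6672 RPM in the adult and 6757 RPM in the larval CNS, a ratio of 0.987 (0.956 to 1.02), and its exact reads at 14785 and 9621 RPM, a ratio of 1.54 (1.5 to 1.58). Once the 10 most abundant hairpins were left out of the total, the log2 ratio of the exact reads was 0.10 in place of 0.62, and that of the variants -0.54 in place of -0.02. Which class was the higher in ratio does not depend on the total.

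The 3' arm of miR-277, the strand that carries nearly all its reads, had like shares of exact reads at very different levels. It had 24091 exact and 16094 variant reads in the adult library, and 142 and 105 in the larval library. The exact share was 59.95% in the adult (59.5 to 60.4) and 57.5% in the larval library (51.1 to 63.7). The larval interval is wide, and a difference smaller than it was not detectable at this depth. The rare 5' arms of miR-277 and miR-317 held too few larval reads, 2 and 16, for such a comparison.

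**Figure D4:**
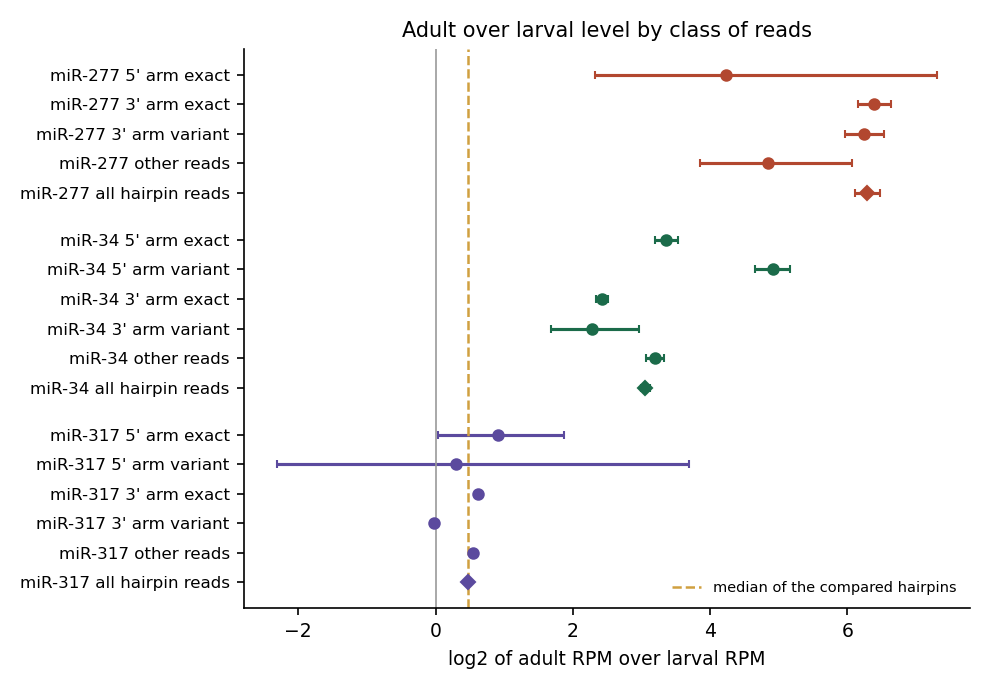
log2 of the adult over the larval RPM for each class of reads of each hairpin, without added reads. Bars are exact conditional binomial 95% intervals, diamonds are all reads of a hairpin, and the dashed line is the median of the 114 compared hairpins at 0.47. All miR-277 classes lie right of the dashed line, the variants of the miR-34 5' arm lie right of its other classes, and the points of the miR-317 classes lie within 0.5 of the dashed line. Variants of the miR-277 5' arm, with 9 adult reads and 0 larval reads, are not drawn.

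miR-317 supplied most of the reads that were assigned to a hairpin but to neither of its mature arms. It had 46222 such reads in the adult library, 56.4% of its reads (56.0 to 56.7), and 15681 in the larval library, 53.8% (53.2 to 54.3). These were 68.4% of all such reads of the adult library (68.1 to 68.8) and 80.5% of those of the larval library (80.0 to 81.1). Their level was 27758 RPM in the adult and 19065 RPM in the larval CNS, 1.46-fold higher in the adult (1.43 to 1.48). Once the 10 most abundant hairpins of either library were left out of the total, their log2 ratio was 0.02. As a hairpin of their own they would have been exceeded by only 8 other hairpins in the adult and 10 in the larval CNS.

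miR-34 supplied the most such reads after miR-317 in the adult library, 12.8% of all, and 2.40% in the larval library. It had 8665 reads in neither arm in the adult library, 23.4% of its reads (23 to 23.9), and 467 in the larval library, 21.3% (19.6 to 23). miR-277 had few of them, with 465 such reads or 1.14% in the adult (1.04 to 1.25) and 8 or 3.11% in the larval library (1.35 to 6.04). The median over hairpins with at least 20 reads was 1.45% in the adult and 0.797% in the larval CNS. miR-277 was thus below the median in the adult library and above it in the larval one. In each library the median lay outside its interval.

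Together the 3 hairpins gave 82.0% of the adult and 83.0% of the larval reads in neither arm. Without them such reads were 0.809% of the adult and 0.419% of the larval library. Among 89 hairpins with at least 20 reads in each library, the share of these reads differed by at least 10 points with intervals apart in 8.99%, and in none of the 3 members. The shares of miR-317 and miR-34 were high in both libraries, 2.6 and 2.16 points higher in the adult one. Among hairpins with at least 20 reads in a library, 4 in each had a higher share than miR-317, but they were far less abundant, with at most 1531 reads in the adult and 190 in the larval CNS. The deposited columns do not give the positions or lengths of these reads, so where in the hairpin they lie is not known.

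**Figure D5:**
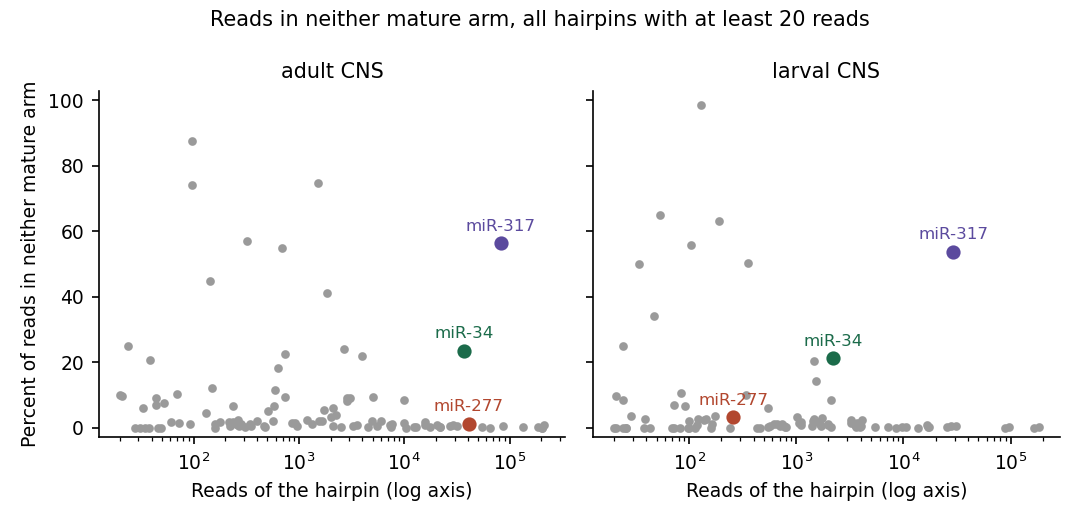
Share of the reads of a hairpin assigned to neither mature arm, against its reads on a log axis. Every hairpin with at least 20 reads in a library is drawn, adult CNS left of larval CNS. Grey points are hairpins outside the cluster. miR-317 stands apart at the upper right of both panels, at 56.4% in the adult and 53.8% in the larval CNS, and miR-34 lies above most grey points of like abundance.

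No read of the mature arms of the cluster was shared with another hairpin: the unique counts equalled the full counts, 104379 reads in the adult and 15465 in the larval CNS. 15 hairpins in each library did share reads. The mature counts of the 3 members are therefore not shared with copies. Reads in neither arm have no unique column.

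Hairpins with the most similar ratio were found by the absolute difference of log2 ratios over the 2 libraries. For miR-277 they were miR-969 (5.73, from 161 adult reads and 1 larval read), miR-210 (7.45) and miR-285 (4.66). For miR-34 they were miR-957 (3.10), miR-284 (3.17) and miR-14 (3.19). For miR-317 they were miR-281-1 (0.48), bantam (0.47) and miR-316 (0.50). With only 2 libraries, a like ratio is a weak measure of likeness.

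A pair of lists of related microRNAs that hold members were set beside the cluster. Of 4 microRNAs linked to the moulting hormone ecdysone, all were past 2-fold higher in the adult library: let-7 with 9519 RPM in the adult and 562 RPM in the larval CNS, miR-125 with 3050 and 210 RPM, miR-34, and miR-100 with 204 and 46.2 RPM. Over all 114 compared hairpins 40.4% were past it in this direction. The median log2 ratio of the list was 3.46, beside 0.47 over all compared hairpins. The list was not split by whether the hormone raises or lowers a microRNA. Its count and median are therefore no measure of a response to ecdysone. Of 8 microRNAs tied to ageing or lifespan, 6 were past 2-fold higher and 2 past 2-fold lower in the adult library, beside 40.4% and 24.6% of all compared hairpins. The median of the list was 3.12. The higher ones were miR-277, miR-34, miR-14 (79931 RPM in the adult and 8743 RPM in the larval CNS) and the 3 of the let-7 complex. The lower ones were miR-282, with 78.1 RPM in the adult and 1240 RPM in the larval CNS, and miR-305, with 5995 and 20345 RPM. miR-34 and the let-7 complex stand in both lists, so the lists are not separate evidence. Within each list the 3 of the let-7 complex are neighbours, so they are not separate either.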

How the data were processed

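The authors deposited counts of reads per annotated hairpin for each library, split per the file headers into 5' and 3' mature arms, exact and unique reads, and other reads. The submitters' processing notes name CASAVA 1.8 and dm3. How reads were aligned, and by which annotation and tolerance a read was assigned to an arm, was not recorded in the sources used here. For the comparison, the authors deposited RPM values, a signed fold change, a Z score as the test statistic and p-values of Kal's test, per the file headers. The reads in that table equalled those of the library tables in 174 of 174 hairpins.

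RPM, ratios and shares were computed with Python 3.11.15 and SciPy 1.17.1. Ratios have exact conditional binomial intervals, shares exact binomial (Clopper-Pearson) intervals and levels Poisson intervals, all at 95%. A hairpin was past the fold at a ratio of at least 2 or at most 0.5. The code was tested on simulated data. Leaving out a replicate was not possible with 1 library per stage, so edgeR and DESeq2 gave no test. Their factors (edgeR 4.0.16, DESeq2 1.42.0), other totals, other read classes and other floors were alternatives. Positions come from Ensembl release 115 (BDGP6) by name and were not combined with dm3. Named hairpins are the members, the 3 hairpins of nearest ratio, the neighbours in rank, and the listed microRNAs. The members and lists were chosen with earlier results of these data known.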

Additional observations from a re-analysis of the deposited data

How the results depend on the processing

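miR-277 and miR-34 stayed at least 2-fold higher in the adult library under every total and read class tried, and miR-317 stayed within 2-fold. With TMM factors the log2 ratio of miR-317 was 0.41. With DESeq2 size factors it was 0.33 and that of miR-34, which is also the median of the 3, was 2.91. Leaving the 10 most abundant hairpins of either library out of the total gave log2 ratios of 5.77 for miR-277 and -0.047 for miR-317. Those of miR-34 and of the median were then 2.54. With the total without the 3 cluster hairpins they were 3.15 for miR-34 and the median and 0.56 for miR-317. With mature reads only miR-317 had 0.42, and with unique reads only 0.41. With exact reads only miR-34 and the median had 2.70 and miR-317 0.66, and with the more abundant arm only 2.44 and 0.41. That arm was the one with more reads over both libraries, the 3' arm in each member. For miR-34 the 5' arm, slightly the more abundant in the adult library, had a log2 ratio of 4.02 per all hairpin reads. Without a floor on low counts, 81 hairpins were past 2-fold higher and 43 lower in the adult library, in place of 46 and 28.

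As points of the reads of the cluster, adult minus larval, miR-277 gained 24.7, miR-34 gained 16.2 and miR-317 lost, at -40.9. With mature reads only the values were 37 for miR-277 and -52.9 for miR-317. Unique reads only gave the same by construction, since no mature read of the members was shared. With exact reads only the values were 33.6, 12.9 for miR-34 and -46.4, and with the more abundant arm only 43.0, 7.0 and -50.0. With exact reads the 5' share of miR-34 differed by 12.1 points in place of 25.3. The causes of these shifts were not tested, beyond the classes of reads each setting leaves out. Other totals for the count of hairpins past 2-fold were chosen after seeing the data. Unique counts of reads in neither arm are not used here. No paired analysis was possible because each stage has 1 library. Depth limits the larval values of miR-277, with 257 reads, and of the rare 5' arms.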
